A study of Mus musculus with 15 samples.

Results

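The loops described here are the T cell receptor (TCR) alpha CDR3 peptides that end in GNEKIT, the end that the mouse joining segment TRAJ48 gives to the alpha chain. They were chosen by that ending in the deposited lists of 15 libraries, and 3111 of 92219 distinct CDR3s (3.37%) carried it. Of these, 16 ended in RPPRYGNEKIT and are called the RPPRY family, and the other 3095 are called the other TRAJ48-end loops. The family was selected on its high read shares in tumours, so its tumour values are given as a description, and no test of them is used. The link of the ending to TRAJ48 rests on general knowledge, and RefSeq's genes of GRCm38.p6 served for the segment's name and its neighbours, Traj49 and Traj47.

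All mice were C57BL/6 males with 1 TCR beta chain supplied by a transgene (TCRbtg), which leaves the alpha chain to vary between their T cells. Tumour libraries (5) came from CD8b+ CD4neg cells of prostate tumours of TCRbtg TRAMP+/- males aged 27 weeks, where TRAMP is a transgenic model of prostate cancer. MP libraries (5) came from CD8b+ CD4neg CD44hi CD122+ cells, which carry memory markers, and Naive libraries (5) from CD8b+ CD4neg CD44lo CD122neg cells, both from spleen and lymph nodes, pooled, of TCRbtg mice aged 9 weeks. Tumour libraries held 627205 to 943699 reads, MP libraries 574484 to 881988 and Naive libraries 547665 to 702663. Tissue, age, TRAMP genotype and the gate on CD44 and CD122 all separate Tumour from the other groups and cannot be told apart. The labels do not give the number of cells sorted, so more cells that carry a loop and more RNA of that loop per cell cannot be told apart. Alpha chain loops mark few lineages: the invariant loop of iNKT cells took at most 0.000585% of reads in any library, and loops of the MAIT pattern took at most 0.00771% in Tumour, 0.0140% in MP and 0.0287% in Naive libraries. Among MP libraries, MP 1 and MP 5 listed 12401 and 13950 CDR3s and the other 3 listed 2216 to 3392, against 14914 to 29559 in Naive libraries.

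The TCR alpha chain is made in the thymus when 1 of many V segments is joined to 1 of many J segments, with bases trimmed and added at the junction. The CDR3 is the loop at that junction: its first residues come from the V segment, its last from the J segment, and those between are set by the joining itself. CDR3s lie over the peptide that the receptor binds, and identical loops found in many animals are called public, those found in 1 animal private.

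Loop sequences are written here in single-letter residues as deposited, without the conserved residues at each end. The following are shown because the family's tumour reads, the commonest other loops and the calls between MP and Naive cells turn on them.
Family, most abundant: AARPPRYGNEKIT
Family, second: AGRPPRYGNEKIT
Family, highest of the rare loops: AVRPPRYGNEKIT
Outside the family by its 7th residue: AARPPRHGNEKIT
Highest other loop in Tumour: ALSPNYGNEKIT
Highest other loop in MP and in Naive: APANYGNEKIT
Called higher in MP: ASDYGNEKIT
Called higher in MP: AVESYGNEKIT
Lower in MP, listed in all Naive libraries: AASASYGNEKIT
Lower in MP, listed in all Naive libraries: ALDNYGNEKIT

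The RPPRY family was seen in all 5 tumours and in none of the 10 MP and Naive libraries. It took 0.0109% of reads in Tumour 1, 14.6% in Tumour 2, 7.25% in Tumour 3, 14.3% in Tumour 4 and 0.148% in Tumour 5, a mean of 7.26 ± 7.18% (SD, n = 5). Tumours 2, 3 and 4 were high and Tumours 1 and 5 low. The Wilson 95% intervals were 0.00873 to 0.0135% in Tumour 1 and 14.5 to 14.6% in Tumour 2, and they cover counting error only, since no molecular identifiers are stated. In the 10 other libraries 0 reads were listed. The floor used for a loop that is not listed, 3 reads per library, corresponds to a mean share of 0.000438% in MP and 0.000502% in Naive libraries. Against it the tumour mean was at least 16585-fold higher than MP and at least 14456-fold higher than Naive, if no unstated filter removed the loops there. Within the TRAJ48-end reads of a tumour, the family made up 0.398%, 95.1%, 70.8%, 95.8% and 25.8% in Tumours 1 to 5.

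**Figure D1:**
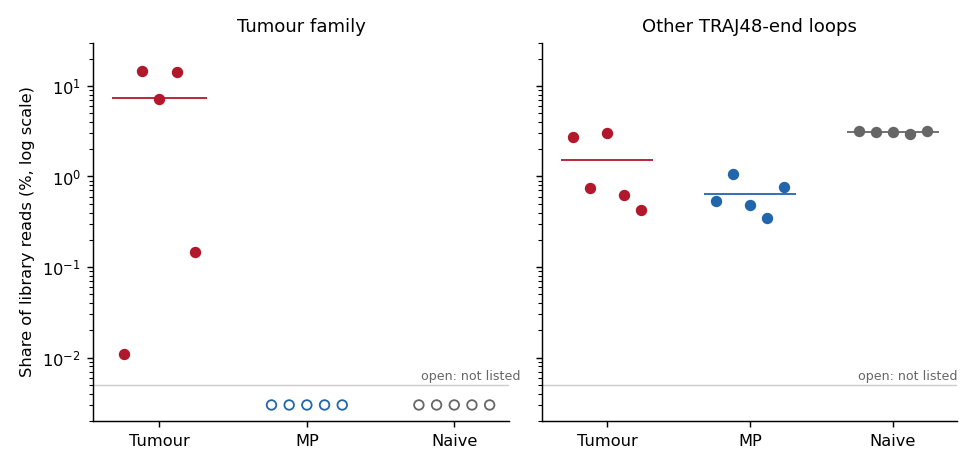
Share of library reads (%, log scale) taken by the RPPRY family (left) and by the other TRAJ48-end loops (right) in each Tumour, MP and Naive library; points are libraries, lines are group means over 5 libraries, and open points below the grey line mark libraries that list no family loop. The family reached 14.6% of reads in Tumour 2 and was listed in no MP or Naive library, and the other loops took 0.346 to 1.06% of MP reads and 2.96 to 3.19% of Naive reads.

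AARPPRYGNEKIT had 81, 112786, 19094, 116195 and 1392 reads in Tumours 1 to 5. It was the most abundant CDR3 of Tumour 2 and ranked 518th, 4th, 2nd and 103rd in Tumours 1, 3, 4 and 5. Among the tumours that list it, its share differed 1335-fold between the highest and the lowest. AGRPPRYGNEKIT differs from it by the substitution A2G, with positions counted from 1 at the first listed residue. It had 26279 reads in Tumour 3, where it was the most abundant CDR3, and 5 reads in Tumour 4. The 3 other tumours did not list it. Tumour 3 thus held both loops at a high level, with 57.8% of its family reads from AGRPPRYGNEKIT and 42.0% from AARPPRYGNEKIT. In the other tumours AARPPRYGNEKIT made up 99.1 to 100% of the family reads.

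The other 14 family loops were rare and together held 1744 of 277576 family reads (0.628%). Each of them was 1 substitution away from AARPPRYGNEKIT (10 loops) or only from AGRPPRYGNEKIT (4 loops). AVRPPRYGNEKIT had 97, 528 and 2 reads in Tumours 2, 4 and 5. VARPPRYGNEKIT had 108, 24 and 344 reads in Tumours 2, 3 and 4. ASRPPRYGNEKIT had 236, 30 and 7 reads in the same 3 tumours. ATRPPRYGNEKIT had 109, 13, 128 and 3 reads in Tumours 2 to 5 and was the rare loop listed in most tumours. DARPPRYGNEKIT, with 16 reads in Tumour 2 and 18 in Tumour 4, and TGRPPRYGNEKIT and VGRPPRYGNEKIT, with 20 and 17 reads in Tumour 3, complete the loops with at least 10 reads in a library. The last 2 were listed only where AGRPPRYGNEKIT was abundant. The remaining 7 had fewer than 10 reads in every library, and 7 of the 14 were listed in 1 tumour alone.

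All 16 family loops were 13 residues long, with 2 residues in front of RPPRYGNEKIT. Counting K and R against D and E, the net charge of AARPPRYGNEKIT was 2, against a read-weighted mean of -0.0724 ± 0.477 (SD, n = 5) over the other TRAJ48-end loops of tumours. RPPR stood in 32 CDR3s of any ending, and 29 of these were listed in tumours. The 3 listed outside tumours had other ends and few reads: ALRPPRNNNNAPR with 4 reads in MP 5, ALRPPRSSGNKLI with 5 reads in Naive 2 and AIDRPPR with 2 reads in Naive 4. RPPRY stood in 17 CDR3s, all from tumours, and the single one without the GNEKIT end was AARPPRYRNEKIT.

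No CDR3 of MP or Naive libraries came close to AARPPRYGNEKIT, the most abundant family loop. Among the 17102 distinct CDR3s of 13 residues in these libraries, 0 lay within 2 substitutions of AARPPRYGNEKIT, 41 lay at 3 and 263 at 4. Distance from the other family loops was not counted here, and some of the 41 lay nearer to one of those. One of the 41 was AAIPANYGNEKIT, listed in no MP library and in all 5 Naive libraries, with 82 reads in all. It was named after its values were seen.

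Loops just outside the family rule keep the TRAJ48 end and have another residue in place of the tyrosine (12 loops) or a change within RPPR. AARPPLYGNEKIT, changed within RPPR, had 308 reads, all in Tumour 2. AARPPRCGNEKIT had 218, 28, 251 and 4 reads in Tumours 2 to 5, and AARPPRHGNEKIT had 177, 48, 197 and 2. In all, 23 of the other TRAJ48-end loops were 1 substitution from a family loop, and 0 of them were listed in MP or Naive libraries. They held 879 of the 5860 reads of other TRAJ48-end loops in Tumour 2, 440 of 18734 in Tumour 3, 568 of 5163 in Tumour 4 and 6 of 4011 in Tumour 5, and none in Tumour 1.

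Rare loops 1 substitution from an abundant family loop, and at most 1 for each 100 of its reads, were counted in the 3 high tumours whatever their ending. There were 36 such loops, and for 35 of them some codons of the exchanged residues differ by 1 base. The lists give peptides and not codons, so the base changes themselves are not known. No like count is given for other CDR3s. Positions 1, 2 and 7 held 25 of the 36 loops and 81.9% of their reads, positions 3 to 6 and 8 held the rest, and positions 9 to 13, the last 5 residues, held 0. The most abundant substitutions were A2V with 625 reads in 2 tumours, Y7H with 574, Y7C with 542 and A1V with 493 reads, the last 3 in 3 tumours each. Around each abundant family loop of a tumour, such loops summed to 1.22 to 1.40% of its reads (median 1.35%, 4 values). In Tumour 3, 3 loops lie 1 substitution from both abundant loops and count in both of these sums. Around the other CDR3s among the 10 most abundant of each tumour, the same sum was 0.193 to 5.06% (median 1.34%, 46 values). Of those 46 CDR3s, 37 likewise had no such reads in their last 5 residues. Whether the rare loops are clones or copying errors was not tested.

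**Figure D2:**
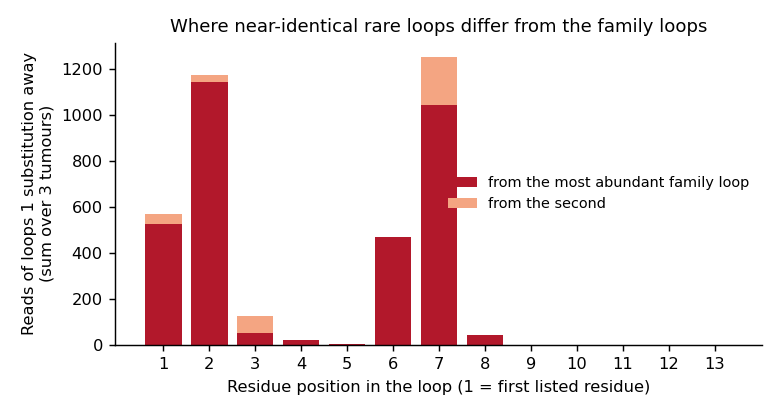
Reads of rare loops 1 substitution from AARPPRYGNEKIT (dark) or AGRPPRYGNEKIT (light), summed over Tumours 2, 3 and 4, by the residue position that differs (1 is the first listed residue). Positions 1, 2 and 7 held 568, 1176 and 1252 reads, and positions 9 to 13 held 0.

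In the fits of Tumour against MP and against Naive over all CDR3s (edgeR's quasi-likelihood test, at least 10 reads in at least 3 libraries, Benjamini-Hochberg adjusted p under 0.05), 3 of the 16 family loops had enough libraries to be tested, AARPPRYGNEKIT, ATRPPRYGNEKIT and VARPPRYGNEKIT. These 3 were called higher in each fit, as were AARPPRCGNEKIT and AARPPRHGNEKIT. All 5 entered through tumour libraries alone and were listed in no other library, and the tumour values chose the family, so these calls test nothing about it. Among all CDR3s tested, 7.68% were called higher in Tumour than in MP and 3.38% higher in Tumour than in Naive. Of the other TRAJ48-end loops, 12 of 22 tested were called lower in Tumour than in MP, beside 66.0% of all CDR3s, and 170 of 179 lower in Tumour than in Naive, beside 86.7%. The tumour contrasts chose the loops and share the tumour libraries, so nothing is read from these counts.

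The other TRAJ48-end loops made up a smaller part of MP than of Naive libraries, both in reads and in distinct CDR3s. Their share of reads was 2.71%, 0.753%, 2.99%, 0.631% and 0.425% in Tumours 1 to 5. It was 0.537%, 1.06%, 0.483%, 0.346% and 0.773% in MP 1 to 5, and 3.16%, 3.12%, 3.08%, 2.96% and 3.19% in Naive 1 to 5. Naive libraries lay within a narrow band above every MP library, and tumours spread over both ranges. The widest Wilson 95% interval of any library's share of TRAJ48-end reads reached 0.0800 percentage points to either side, so counting error is small beside these differences. The MP mean of 0.640 ± 0.283% and the Naive mean of 3.10 ± 0.0899% (SD, n = 5 each) gave a difference, MP minus Naive, of -2.46 percentage points (exact two-sided permutation test, p = 0.00794, the smallest that 5 against 5 libraries allow; Benjamini-Hochberg adjusted over 56 endings, p = 0.0111). Among the 56 endings of 6 residues tested in the same way, 41.1% were called lower in MP, the median difference was -0.100 percentage points, and that of GNEKIT ranked 3rd from the lowest.

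Of the distinct CDR3s of a library, 1.67 ± 0.667% in MP and 3.78 ± 0.128% in Naive carried the TRAJ48 end (SD, n = 5 each). Values ran from 0.903 to 2.52% in MP and from 3.65 to 4.00% in Naive libraries, without overlap. The difference of -2.11 percentage points (exact two-sided permutation test, p = 0.00794, adjusted p = 0.0171) was the lowest of the 56 endings, of which 28.6% were called lower in MP. Without MP 1 and MP 5, which listed the most CDR3s among MP libraries, it was -2.49 points and no longer called (exact permutation test, adjusted p = 0.0567), while the difference in reads stayed called at -2.47 points (exact permutation test, adjusted p = 0.0470). With fewer libraries the smallest p that the test allows is larger, so the lost call does not show a dependence on these libraries. At a common depth of 547665 reads, MP libraries held 19.9 to 349 distinct TRAJ48-end loops and Naive libraries 545 to 1095.

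Loop by loop, 201 of the 3111 TRAJ48-end CDR3s passed the filter for the fit of MP against Naive, and none of the RPPRY family did. Of the 201, 7 passed through their MP libraries alone, 168 through Naive alone, 7 through both and 19 over both groups together. By edgeR's quasi-likelihood test, 132 were called lower in MP, 2 higher and 67 neither. Among the 5954 CDR3s of any ending tested, 48.1% were called lower in MP and 12.6% higher. Since most of the 201 entered through Naive libraries alone, the filter favoured loops that are high there, and the counts describe the lists and support no statement about the class. The median log2 fold change of MP over Naive was -6.44 over the 201 loops and -3.35 over all CDR3s tested. Of the 132 called lower, 97 were listed in no MP library and 103 in all 5 Naive libraries. Together they held on average 0.0145% of reads in MP and 1.85% in Naive libraries.

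**Figure D3:**
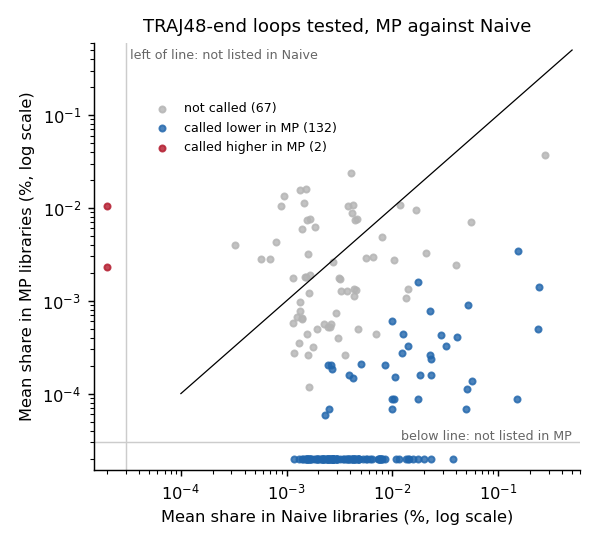
Mean share of reads in MP (vertical) against Naive (horizontal) libraries, both in % on log scales, for the 201 TRAJ48-end loops tested; the diagonal marks equal shares, and points below the horizontal or left of the vertical grey line were listed in no MP or no Naive library. The 132 loops called lower in MP (blue) lie below the diagonal, 97 of them at the bottom edge, and the 2 called higher (red) lie at the left edge.

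The loops called lower in MP included several of the most abundant TRAJ48-end loops of Naive cells. AASASYGNEKIT had 17 reads in MP 5 and none in the other MP libraries, against 0.240%, 0.236%, 0.252%, 0.222% and 0.246% of reads in Naive 1 to 5. Its Naive values lay close together, and its log2 fold change of MP over Naive was -8.86 (SE 1.87, edgeR's quasi-likelihood test, adjusted p = 0.00256). ALAYGNEKIT was listed with 62 reads in MP 1 alone and took 0.217 to 0.278% of reads in Naive libraries (log2 fold change -7.41, SE 2.03, edgeR adjusted p = 0.0110). ALSYGNEKIT had 103 reads in MP 1 and 37 in MP 5, against 0.126 to 0.201% of Naive reads (log2 fold change -5.47, SE 1.79, edgeR adjusted p = 0.0236). MP 1 and MP 5, where these traces lay, are the MP libraries with the most CDR3s. The fitted fold changes rest on those few reads. Over the alternatives run, leaving out MP 1 or MP 5 among them, they ran from -13.60 to -8.41 for AASASYGNEKIT. For ALAYGNEKIT they ran from -13.58 to -7.02 and for ALSYGNEKIT from -12.88 to -5.0, and all 3 loops stayed called. All 3 entered the fit through Naive libraries alone, so their calls are a description of the lists.

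AVRGGNEKIT, one of the abundant loops with no tyrosine before the end, had 3 reads in MP 2 and 692 to 1222 reads in Naive libraries. Its edgeR adjusted p was 0.000662. AASAAYGNEKIT had 6 reads in MP 1 and 253 to 535 reads in Naive libraries (edgeR adjusted p = 0.00112). The next 4 were listed in no MP library, so their folds are bounds against 3 reads per MP library. ALDNYGNEKIT had 166 to 333 reads in Naive libraries and was at least 86.2-fold lower in MP. AASGHGNEKIT, with 64 to 186 Naive reads, was at least 52.4-fold lower. AFPNYGNEKIT, with 105 to 145 Naive reads, was at least 45.7-fold lower, and AADANYGNEKIT, with 88 to 127 Naive reads, at least 39.7-fold lower. All 4, like AVRGGNEKIT and AASAAYGNEKIT, entered the fit through Naive libraries alone. The calls of these loops only describe that they were listed there, with few or no reads in MP. Of these, AADANYGNEKIT was also listed in Tumour 4, with 94 reads.

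The 2 loops called higher in MP were listed in no Naive library and entered the fit through MP libraries alone, so their calls are a description too. ASDYGNEKIT had 66, 102, 0, 76 and 116 reads in MP 1 to 5, a mean share of 0.0105 ± 0.00686% (SD, n = 5), at least 21.0-fold higher than the Naive floor (edgeR's quasi-likelihood test, adjusted p = 0.00960). It was present in 4 of 5 MP libraries at like levels and in no tumour. AVESYGNEKIT had 17, 32, 0, 28 and 0 reads in MP 1 to 5 and was at least 4.58-fold higher (edgeR adjusted p = 0.0318). Without any single Naive library its call was lost (edgeR adjusted p up to 0.0538), while its fitted log2 fold change, 6.91 with all libraries, stayed between 6.90 and 6.94. With MP 1, MP 2 or MP 4 left out, AVESYGNEKIT had too few libraries to be tested. Without MP 1 and MP 5 neither loop had enough libraries to be tested. In that fit 0 TRAJ48-end loops were called higher, and 0 loops with a positive fold change had an unadjusted p under 0.05 (edgeR). DESeq2 was not run without these libraries.

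Other loops were most abundant in MP through single libraries. ATDNYGNEKIT took 0.187% of reads in MP 3, and AVSMWRGNEKIT took 0.0800% in MP 2, and no other library listed either of them. AFANYGNEKIT and AMSYGNEKIT had 479 and 447 reads in MP 2 and at most 69 in any other MP library, against at most 20 in any Naive library. APPNYGNEKIT had 210, 355, 0, 0 and 301 reads in MP 1 to 5 and 13 to 37 in Naive libraries. Its log2 fold change of 2.54 (SE 1.60) was not called (edgeR adjusted p = 0.200).

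APANYGNEKIT was the most widely listed TRAJ48-end loop, in 10 of 15 libraries. It had 119 reads in Tumour 2 and none in the other tumours. MP libraries 1 to 5 held 261, 743, 0, 74 and 240 reads of it, and Naive libraries 1828, 1844, 1483, 1328 and 1898. Every Naive library lay above every MP library. The MP mean was 0.0373 ± 0.0424% and the Naive mean 0.279 ± 0.0387% (SD, n = 5 each), 7.47 times as high, and the log2 fold change of MP over Naive, -2.90 (SE 1.24), was not called (edgeR adjusted p = 0.0660).

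By reads, the other TRAJ48-end loops were mostly listed in few Tumour or MP libraries and in all 5 Naive libraries. Tumours listed 151 of them, 142 in 1 tumour (94.0%) and 0 in all 5. MP libraries listed 588, 491 in 1 library (83.5%) and 0 in all 5. Naive libraries listed 2724, 1796 in 1 library (65.9%) and 175 in all 5 (6.42%). Those 175 took 77.1 ± 1.36% of the other TRAJ48-end reads in Naive libraries (SD, n = 5). Over all CDR3s, 85.9%, 77.4% and 68.6% of those listed in Tumour, MP and Naive libraries were in 1 library of the group, and 1.14%, 1.90% and 6.00% were in all 5. By count, the Naive values of 65.9% and 6.42% thus lay near those over all CDR3s. Shares by reads over all CDR3s are not given, so the pattern by reads is not shown to be particular to these loops. AARPPRYGNEKIT was the only TRAJ48-end loop listed in all 5 tumours.

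**Figure D4:**
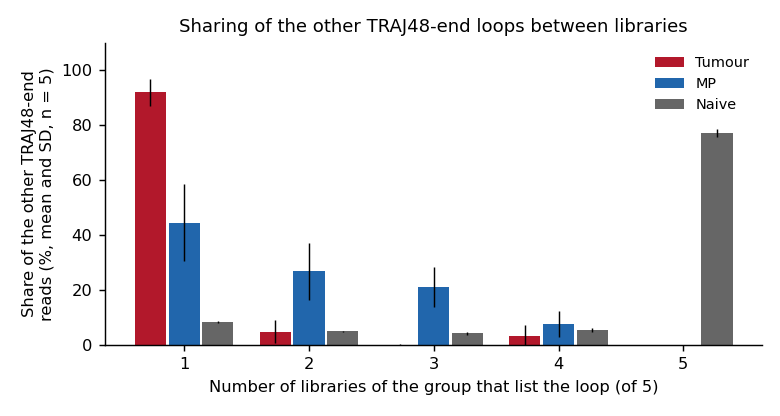
Share of the other TRAJ48-end reads of a library (%, bars are means and lines SD over 5 libraries) held by loops that 1 to 5 libraries of the same group list. Loops in all 5 libraries held none of these reads in Tumour or MP libraries and 77.1% in Naive libraries.

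Of the 151 other loops listed in tumours, 32 (21.2%) were also listed in MP libraries and 46 (30.5%) in Naive libraries, while 99 (65.6%) were in neither. The 99 include the 23 loops 1 substitution from a family loop, which raise the share in neither. Of all 6146 CDR3s listed in tumours, 25.7% were also listed in MP libraries, 35.0% in Naive libraries and 59.1% in neither. The 32 are 5.44% of the MP list, and the 46 are 1.69% of the Naive list. MP and Naive libraries had 316 of these loops in common, which are 53.7% of the MP list and 11.6% of the Naive list (42.5% and 14.6% over all CDR3s), and 26 loops were in all 3 groups. The lists differ in length and in the number of CDR3s per library, so these shares are descriptions.

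In most tumours 1 loop held a large part of the other TRAJ48-end reads, and it was a different loop in each. ALSPNYGNEKIT had 17108 reads in Tumour 1 (2.29% of reads, 84.4% of the other TRAJ48-end reads) and none in the other tumours. It was also listed in MP 3 with 107 reads and in 4 Naive libraries with 4 to 29. AAIPGANYGNEKIT led in Tumour 2 with 959 reads, AVRTNYGNEKIT in Tumour 3 with 11886, ALAGDYGNEKIT in Tumour 4 with 2876 and AAGAEWGNEKIT in Tumour 5 with 2021, and none of these was listed in a second tumour. AVRTNYGNEKIT and ALAGDYGNEKIT were also listed in Naive libraries, with at most 11 and 6 reads. AAAPSNYGNEKIT, the second in Tumour 3 with 3448 reads, was in no other library. Tumours 1 and 3, where a single loop took over 1% of reads, were the 2 tumours with the highest share of other TRAJ48-end loops.

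Only 9 of the other TRAJ48-end loops were listed in 2 or more tumours, and 7 of these lay within 2 substitutions of a family loop. The remaining pair were AANYGNEKIT and AIAPANYGNEKIT. AANYGNEKIT had 191 reads in Tumour 2 and 315 in Tumour 5, against 37 in MP 1, 10 in MP 5 and 11 to 37 in Naive libraries. AIAPANYGNEKIT had 106 reads in Tumour 2 and 1708 in Tumour 3, against 116 in MP 1, 5 in MP 5 and 27 to 114 in Naive libraries. Both were thus listed in all 5 Naive libraries. AVRDGNEKIT, the remaining loop listed in 9 libraries, had 10 reads in Tumour 2, against 29, 210 and 10 in MP 1, 2 and 5 and 233 to 479 in Naive libraries.

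Most loops of the class carried a tyrosine just before GNEKIT, as the family does. Whether this residue and the one before it come from the J segment or from the joining was not checked. By reads, the tyrosine stood in 79.3 ± 29.0% of the other TRAJ48-end loops in Tumour, 90.6 ± 6.79% in MP and 82.0 ± 0.916% in Naive libraries (SD, n = 5 each). Tumour 5 stood apart with 27.9%. In it AAGAEWGNEKIT, with tryptophan there, held 50.4% of the other TRAJ48-end reads, and ALSVHGNEKIT, with histidine and named after its values were seen, held 20.8%. Asparagine before the tyrosine was found in 57.6 ± 31.7% of these reads in Tumour, 56.2 ± 12.9% in MP and 38.0 ± 1.77% in Naive libraries, where the family has arginine. These shares were not tested.

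Loops of 12 residues held 59.6 ± 22.7% of the other TRAJ48-end reads in tumours. Loops of 11 residues were commonest in MP, with 36.7 ± 9.53%, and loops of 10 residues in Naive libraries, with 32.2 ± 2.03% (SD, n = 5 each). Loops of 13 residues, the family's length, held 14.9 ± 14.3% in Tumour, 7.97 ± 2.23% in MP and 7.28 ± 0.546% in Naive libraries. The tumour share includes the 23 loops 1 substitution from a family loop, all of that length, with the reads given above. It is therefore not a share of loops unrelated to the family. Weighted by reads, the loops averaged 11.2 ± 0.105 residues in MP libraries, against 11.1 ± 0.0432 residues in Naive ones. That difference of 0.105 residues was not called (exact two-sided permutation test, adjusted p = 0.123), but it was called at 0.157 residues over CDR3s of at least 10 reads (exact permutation test, adjusted p = 0.0281). It was -0.0448 residues when the class was defined by its last 7 residues.

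**Figure D5:**
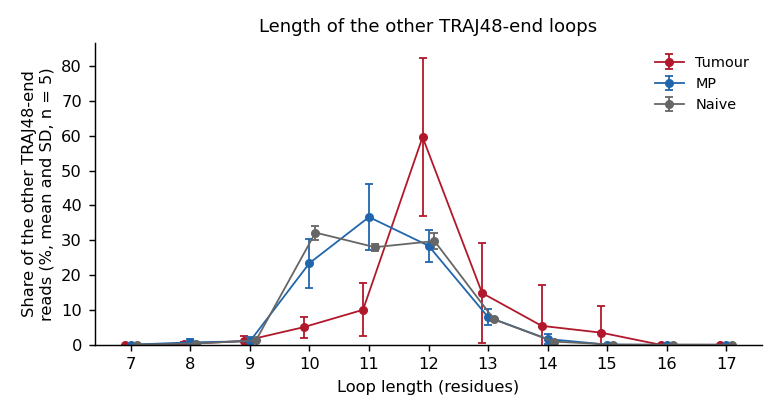
Share of the other TRAJ48-end reads (%, mean and SD over 5 libraries, cut at 0) by loop length in residues, for Tumour, MP and Naive libraries; a few longer and shorter loops are left out. Tumour reads peak at 12 residues with 59.6%, MP reads at 11 and Naive reads at 10.

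The mean net charge of the TRAJ48-end loops, weighted by reads, was -0.112, -0.0245, -0.437, -0.187 and -0.128 in MP 1 to 5, against -0.00297, -0.0299, -0.0176, -0.0193 and -0.00824 in Naive 1 to 5. MP 3 was the lowest, and MP 2 lay within the Naive range. The difference of -0.162 (exact two-sided permutation test, adjusted p = 0.0401) was called, as were 24.5% of 53 endings in that direction. Leaving out any single library other than MP 2 or Naive 2 ended it (exact permutation test, adjusted p from 0.0701 to 0.0816), although the difference stayed between -0.179 and -0.159 in all of these but the one without MP 3, where it was -0.0974. Without MP 1 and MP 5 it was -0.201 (exact permutation test, adjusted p = 0.166). Leaving out libraries also raises the smallest p that the test allows. ATDNYGNEKIT, which carries an aspartate, held 38.6% of the TRAJ48-end reads of MP 3.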

How the data were processed

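Per the labels' protocols, RNA of sorted CD8+ cells was taken with Trizol and iRepertoire made TCR alpha libraries by its multiplex arm-PCR. The authors deposited raw read counts for each CDR3 peptide, 1 list per library. The aligner, the CDR3 caller and any error filter or molecular identifier: not given in the sources used here. No library listed a count below 2. No 2 libraries of a group were alike within counting noise (chi-square per degree of freedom of at least 7.61).

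Shares are percentages of a library's summed counts. Every 6-residue ending with a mean of at least 0.1% of reads in MP or Naive libraries was compared by an exact permutation test over the 252 regroupings of 5 against 5 libraries (the smaller tail doubled for a two-sided p), with Benjamini-Hochberg adjustment over all endings. Calls per CDR3 used edgeR 4.0.16 (limma 3.58.1, R 4.3.3), quasi-likelihood with robust dispersion and total reads as library size, on CDR3s that reached 10 reads in 3 or more libraries, called at an adjusted p under 0.05. The SE of a fold change is its size over the square root of F. Other values used python 3.11.15, numpy 2.4.6, pandas 2.3.3 and scipy 1.17.1, and matplotlib 3.10.9 for plots. Scripts were tested on simulated data. Alternatives were TMM, DESeq2 1.42.0, other filters, endings of 5 or 7 residues, folding of loops 1 substitution from one at least 100 times as abundant, a replicate block, and leaving out libraries. The fit without MP 1 and MP 5 was added after seeing the data.

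The labels say that the cells of the 9-week group came from different mice and the tumours from different males. They do not say whether MP and Naive libraries of 1 number share a mouse, and the groups were treated as unpaired. Members, lists and tests were chosen with earlier results of these data known. Loops were named by a rule: family loops with at least 10 reads in a library, the 6 other loops with the highest mean share in each group, the leading one of each tumour, the 5 largest fold changes each way among called loops, and the 5 listed in most libraries. Loops of 15 residues or more are described without letters.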

Additional observations from a re-analysis of the deposited data

Results flagged for a closer look

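In 85 groups of 5 libraries examined, 31 had a highest or lowest library set apart from the others by a gap over 0.71 of the group's range. Chance alone sets apart about 1 in 20 groups, and a loop listed in 1 library of a group is always set apart. In the family, AGRPPRYGNEKIT took 4.19% of reads in Tumour 3, against 0.000611% in the next tumour. AVRPPRYGNEKIT took 0.0646% in Tumour 4, against 0.0125%, and ASRPPRYGNEKIT 0.0303% in Tumour 2, against 0.00478%. TGRPPRYGNEKIT, at 0.00319%, and VGRPPRYGNEKIT, at 0.00271%, were in Tumour 3 alone.

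Among the other TRAJ48-end loops, single tumours stood out for ALSPNYGNEKIT (2.29% in Tumour 1), AVRTNYGNEKIT (1.90% in Tumour 3), AAAPSNYGNEKIT (0.550% in Tumour 3), ALAGDYGNEKIT (0.352% in Tumour 4), AAGAEWGNEKIT (0.214% in Tumour 5) and AAIPGANYGNEKIT (0.123% in Tumour 2). AIAPANYGNEKIT took 0.272% in Tumour 3, against 0.0136% in the next tumour, and 0.0132% in MP 1, against 0.000731% in the next MP library. Tumour 2 alone listed APANYGNEKIT (0.0153%), ALAYGNEKIT (0.00822%) and AVRDGNEKIT (0.00128%), and Tumour 4 alone AADANYGNEKIT (0.0115%). Tyrosine before the end stood in 27.9% of the other TRAJ48-end reads in Tumour 5, against 89.5% in the next tumour.

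In MP 3, ATDNYGNEKIT took 0.187% and ALSPNYGNEKIT 0.0160% of reads, and no other MP library listed them. The leading loop held 38.6% of the TRAJ48-end reads of MP 3, against 11.1% in the next MP library, and asparagine and tyrosine before the end stood in 78.5%, against 55.8%. In MP 2, AVSMWRGNEKIT took 0.0800%, AFANYGNEKIT 0.0703%, AMSYGNEKIT 0.0656%, AVRDGNEKIT 0.0308% and AVRGGNEKIT 0.000440%. In MP 1, ALAYGNEKIT took 0.00703% and AASAAYGNEKIT 0.000680%, and AASASYGNEKIT took 0.00249% in MP 5. Among Naive libraries, AVRTNYGNEKIT was listed in Naive 1 alone (0.00157%).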

How the results depend on the processing

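The lower share of TRAJ48-end reads in MP kept its direction and its call under all alternatives run (-2.57 to -1.98 percentage points), and so did the share of distinct CDR3s, at -2.33 to -1.56 points, except without MP 1 and MP 5 together (-2.49, exact permutation test, adjusted p = 0.0567). With 1 library left out, the read share differed by -2.57 to -2.39 points, the distinct share by -2.33 to -1.92, length by 0.0768 to 0.143 residues and net charge by -0.201 to -0.0974. The length difference was 0.157 and called without CDR3s under 10 reads, and reversed to -0.0448 with endings of 7 residues. Without MP 1 and MP 5 together the charge difference was -0.201 and not called. Of TRAJ48-end loops in MP against Naive, 2 were called higher and 132 lower. A filter of at least 50 reads left 50 loops to test, with 1 higher and 39 lower. With no count filter, 1024 were tested, with 21 higher and 647 lower. With 1 library left out, 1 to 4 were higher and 103 to 143 lower, and without MP 1 and MP 5 together 0 were higher and 149 lower. TMM gave 2 and 129, DESeq2 2 and 135, and folding 2 and 130. The cause of these shifts beyond fewer loops or libraries was not tested. With the library number as a replicate block, 2 were higher and 141 lower, 127 of them among the 132. Same-numbered MP and Naive libraries deviated together with correlations of 0.00722 to 0.0464 over 5954 CDR3s. The highest correlation of an MP library with a Naive library of another number was 0.0133 to 0.0333. The same number gave the higher value for numbers 1, 2 and 5 and the lower for 3 and 4. Each same-numbered value was set against the highest of several others, which is an uneven comparison. No same-numbered value was over 0.1, and the number was not used to pair libraries. These values do not settle whether same-numbered libraries share a mouse. The tumour mean was 5.44 to 9.07% for the family and 1.13 to 1.77% for the other loops with 1 tumour left out. Depth limits statements on loops that are not listed: a count under 2 is not listed, and 3 reads, the floor used for bounds, are 0.000318 to 0.000548% of a library.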

Other observations

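The first 2 residues of a loop, which come mostly from the V segment, also differed in their use among the other TRAJ48-end loops. These values were picked after they were seen and were not tested. AA led in tumours with 38.2 ± 31.5% of the other TRAJ48-end reads, against 17.8 ± 7.80% in MP and 27.8 ± 3.01% in Naive libraries (SD, n = 5 each). Its tumour share includes loops that lie 1 substitution from AARPPRYGNEKIT. AL took 35.3 ± 35.7% in Tumour, 20.0 ± 9.64% in MP and 30.2 ± 2.13% in Naive libraries. AP, the start of APANYGNEKIT, took 0.540 ± 1.04% in Tumour, 9.22 ± 6.50% in MP and 11.2 ± 1.14% in Naive libraries.

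IL was a rare start in Naive libraries, with 0.0453 to 0.138% of the other TRAJ48-end reads, against 0.416 to 4.88% in MP libraries and 0 to 0.802% in tumours. AS, the start of ASDYGNEKIT, took 1.73 to 6.21% in MP libraries, which overlaps the 0.865 to 1.87% of Naive libraries. Glycine in place of the tyrosine before the end, as in AVRGGNEKIT, took 0.693 ± 1.03% of these reads in MP and 7.75 ± 0.635% in Naive libraries (SD, n = 5 each). In tumours, 1 library listed 1 such loop.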
